A study of Macaca fascicularis with 56 samples.

Results

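Blood of macaques labelled peptide control was compared between 2 h and 0 h. The members were the 8 arrays whose labels name that arm at those hours, out of 56 arrays in the series, with 4 arrays at each hour. The animal numbers pair them, so each of the animals Y31305, Y31306, Y31307 and Y31308 gave 1 array at 0 h and 1 at 2 h. Gene expression was read in whole blood of 14 cynomolgus macaques (Macaca fascicularis) on arrays designed for human genes, with samples labelled 0, 2, 4 and 8 h. Per the title of the series, an endotoxin challenge came before treatment with LR12 or with a scrambled version of LR12, a peptide that blocks signalling through the receptor TREM-1. The labels of the arrays themselves say vehicle (4 animals), peptide control (4 animals) or LR12 (6 animals). They give no dose, age, sex or strain, do not say whether vehicle animals received endotoxin, and do not place hour 0 in the protocol.

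Endotoxin is the lipopolysaccharide of Gram-negative bacteria. Monocytes and neutrophils sense it through the receptor TLR4, aided by CD14 and LY96, and answer by activating the transcription factor NF-kB, which switches on cytokines, chemokines and adhesion molecules together with its own inhibitors. TREM-1 on the same cells, with its adaptor TYROBP, amplifies that signalling. In blood, such a response also moves cells: neutrophils leave the marrow, and monocytes and lymphocytes leave the circulation.

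Levels are log2 of the array intensity, and a change is the 2 h level minus the 0 h level on that scale, so that 1 stands for a factor of 2. Of 16020 genes tested, a gene was called when its adjusted p (limma, Benjamini-Hochberg over all genes) lay under 0.05, and "rose" and "fell" are used of called genes. SE is limma's standard error, SD is over 4 animals, and the main test did not use the pairing of arrays by animal. Counts with the animal as a random block stand beside those without it where they differ. Since macaque RNA was read with human probes, levels were compared between samples and not between genes.

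One animal stood apart. In Y31305 the genes that rose had a median change of 0.50, against 1.80, 1.58 and 1.64 in Y31306, Y31307 and Y31308, and the genes that fell had a median of -0.55 against -1.62, -1.06 and -1.52. Its change was the smallest of the 4 animals for 284 of the 352 rises and 123 of the 176 falls. Across all genes, the changes of Y31306, Y31307 and Y31308 correlated with each other at 0.33 to 0.38 and those of Y31305 with them at -0.05 to 0.11, as a description of 16020 genes that share arrays. Counts without Y31305 are therefore given for all genes and for the lists in which they differ most.

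The arrays differed in ways the groups do not explain. The mean level of the 24 added poly-A control probe sets split the 56 arrays into a high and a low set with a gap of 0.655 between them. At 0 h 3 of the 4 peptide control arrays were in the high set and at 2 h 1 of 4 was. Y31306 kept the high set at both hours (10.60 and 9.002) and Y31307 the low set (7.51 and 8.27), while Y31305 (10.08 and 6.63) and Y31308 (10.29 and 7.56) went from high to low. The 2 h array of Y31305 also had the widest gap between the 3' and 5' probe sets of beta actin among the 8 arrays (2.58, against 1.07 to 1.90). A wide gap can be a sign of shorter RNA or cDNA. For GAPDH the gap on that array was 0.94, inside the 0.69 to 1.12 of the other animals at 2 h. Among the 8 arrays the actin gap was 1.07 to 1.63 in the high set and 1.41 to 2.58 in the low set. The 4 h array of Y31305 lay in the high set with an actin gap of 1.79, against 1.06 to 1.27 in the other animals at 4 h. The same gap for GAPDH was 1.65 on that array, against 0.81 to 1.20. PI3, a gene that rose strongly in the others, read 7.45 there against 6.26 at 0 h and 7.20 at 2 h. The part of array and RNA differences in the response of Y31305 was not tested at either hour. A check list of blood genes (6 leukocyte genes and beta globin) had median levels of 13.02 to 13.38 on the 8 arrays. The 7 check genes of other tissues, of which PECAM1 is also made by leukocytes and platelets, had 3.90 to 5.14, and 1 of them rose with the block.

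In the 4 animals together, 352 genes rose and 176 fell, which made 528 called genes or 3.3% of those tested (2.2% up, 1.1% down). The median change of all genes was -0.04, from -0.10 in Y31306 to 0.08 in Y31305. Of the rises, 298 were up in 4 of 4 animals and 54 in 3 of 4, and of the falls 162 and 14 were down in that many. The values at 0 and 2 h did not overlap in 216 of the 352 rises and 125 of the 176 falls, and in 8.41% of all genes. The calls rest on these same values, so a larger share among them is no separate support. With the animal as a block, limma called 700 rises and 523 falls, 1223 genes or 7.63% (4.37% up, 3.26% down), and these held all 352 rises and 176 falls. With the animal as a fixed term in a fit of the 8 arrays alone, 470 genes were called. Of the 81 called genes chosen for naming, 27 were not called in that fit, among them IL1B, IL18, TNFAIP3, CCL2, CCL4, ICAM1, ATF3, FOS, SELPLG and CD83. The adjusted p of these 27 genes in that fit ran from 0.0502 (CHI3L2) to 0.166 (STEAP1). Without Y31305 the counts were 533 and 347. They were 17 and 1 when Y31306 was left out, 83 and 33 when Y31307 was, and 52 and 12 when Y31308 was.

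**Figure D1:**
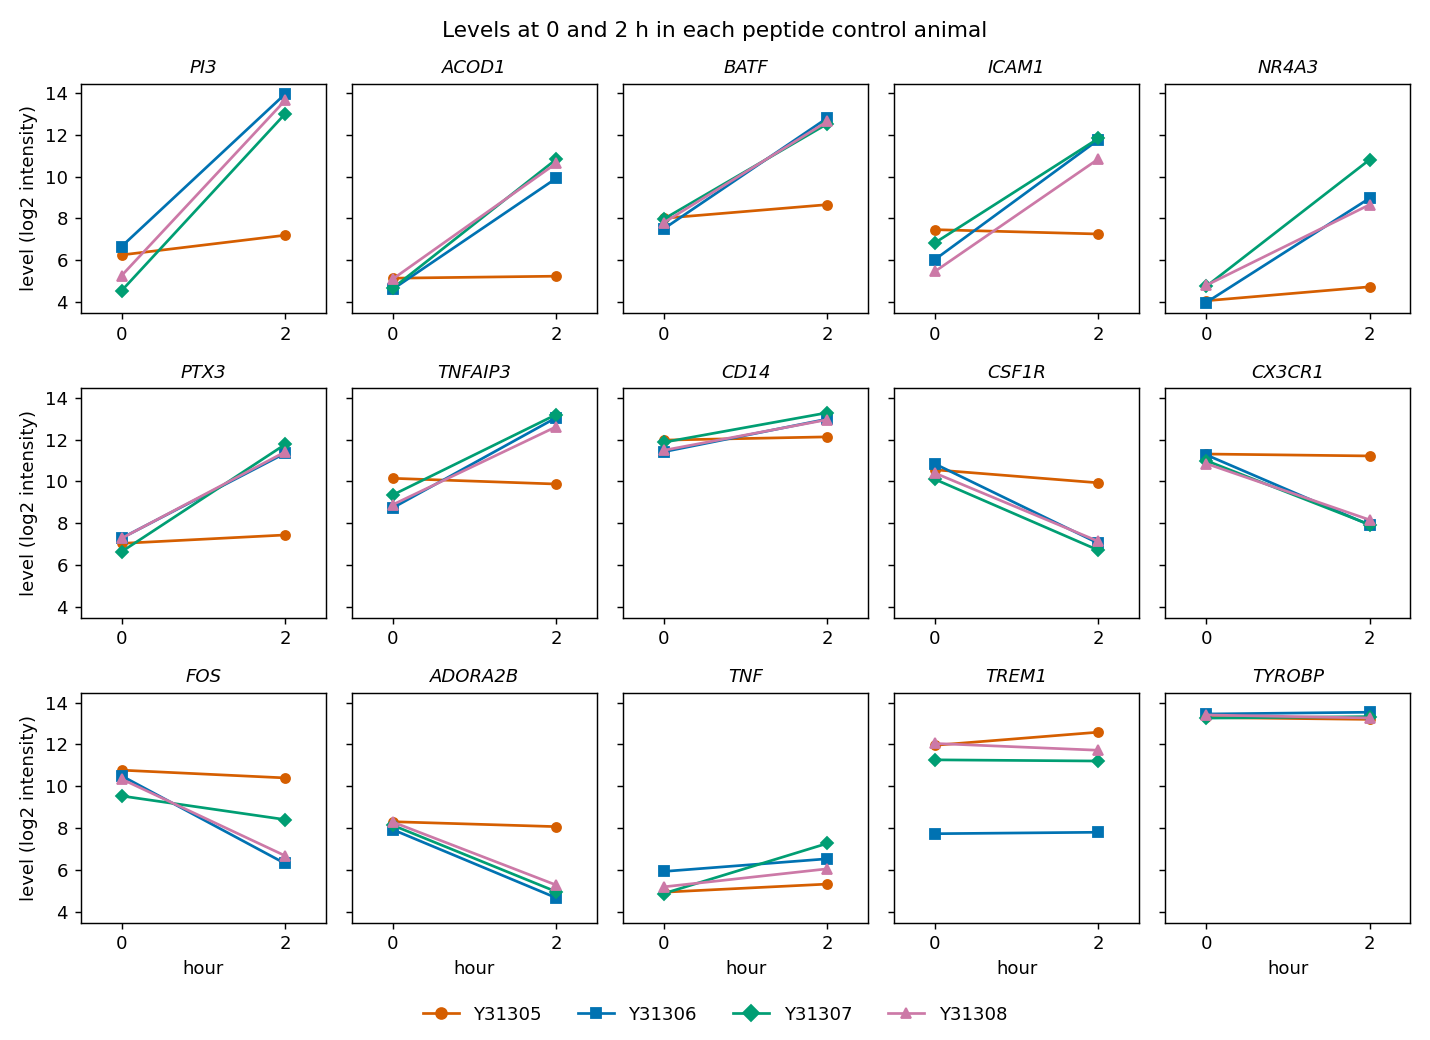
Level (log2 intensity) at 0 and 2 h of 15 genes in each peptide control animal, 1 line per animal and 1 panel per gene. In the rises and falls shown, 3 lines climb or drop together and the line of Y31305 stays near its start, while no TREM1 or TYROBP line moves by more than 0.63.

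PI3, the gene of the protease inhibitor elafin, had the largest change among the genes the text names. It read 6.26, 6.66, 4.54 and 5.27 at 0 h and 7.20, 13.95, 12.999 and 13.64 at 2 h. Values are given for Y31305, Y31306, Y31307 and Y31308 in that order throughout. The groups did not overlap, and the lowest value at 2 h was that of Y31305. The mean rose by 6.26 ± 1.60 (SE, adjusted p = 0.0175, up in 4 of 4 animals). ACOD1, whose enzyme makes the antimicrobial metabolite itaconate, read 5.15, 4.62, 4.66 and 5.10 at 0 h and 5.24, 9.92, 10.83 and 10.64 at 2 h. It rose by 4.28 ± 0.96 (adjusted p = 0.00637), with Y31305 just above its own start and the other three far above.

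Other large rises in 4 of 4 animals covered transcription factors, secreted proteins and transporters. BATF, a factor of the AP-1 family, went from 7.82 ± 0.23 (SD, n = 4) to 11.66 ± 2.00 and rose by 3.83 ± 0.78 (adjusted p = 0.00262). PTX3, the long pentraxin released by neutrophils, rose by 3.43 ± 0.79 (adjusted p = 0.00802), and ADM, the gene of the vasodilator peptide adrenomedullin, by 3.40 ± 0.81 (adjusted p = 0.0106). The receptor for medium-chain fatty acids, GPR84, rose by 3.18 ± 0.58 (adjusted p = 0.000884). G0S2, an inhibitor of triglyceride lipase, rose by 3.14, and the iron transporter SLC11A2 by 3.21 (0.64 to 1.87 in its other probe sets). ENTPD7, a nucleotide-cleaving enzyme, rose by 4.24 (0.70 in its other probe set) and LGALS12, a galectin, by 4.12. In each of these genes the smallest of the 4 changes was that of Y31305, from 0.15 in SLC11A2 to 1.67 in ENTPD7.

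PRG2, the gene of the eosinophil granule major basic protein, read 1.71, 2.86, 3.13 and 4.06 at 0 h and 2.21, 7.24, 10.84 and 9.05 at 2 h. It rose by 4.40 ± 1.10 (adjusted p = 0.015), although the 2 h value of Y31305 lay among the 0 h values. The other 13 tested genes of the list of eosinophils, basophils and mast cells were not called, and the list's median change was near 0 (7 of 14 members above 0). EPX, the peroxidase of the same eosinophil granules, changed by 0.98 (adjusted p = 0.605).

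Of the genes that were up in 3 of 4 animals, ICAM1 is an adhesion molecule induced by NF-kB. It read 7.47, 6.04, 6.84 and 5.47 at 0 h and 7.26, 11.77, 11.83 and 10.85 at 2 h, so Y31305 started highest and ended lowest. The mean change was 3.97 ± 0.70 (adjusted p = 0.000714), and without Y31305 the adjusted p was 1.05e-06. With the animal as a fixed term in the 8 arrays alone it was 0.0566. CHI3L2, a chitinase-like protein, stood at 5.94 to 6.15 in all animals at 0 h and at 6.14, 12.05, 11.22 and 11.51 at 2 h (4.16 ± 1.23, adjusted p = 0.0461). IER3 (4.15), a survival gene of the early response, STEAP1 (4.43), a metal reductase family member, RIN2 (3.72), a regulator of Rab5, and INHBA (3.62), a subunit of activin, rose likewise, and each was lower at 2 h than at 0 h in Y31305.

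**Figure D2:**
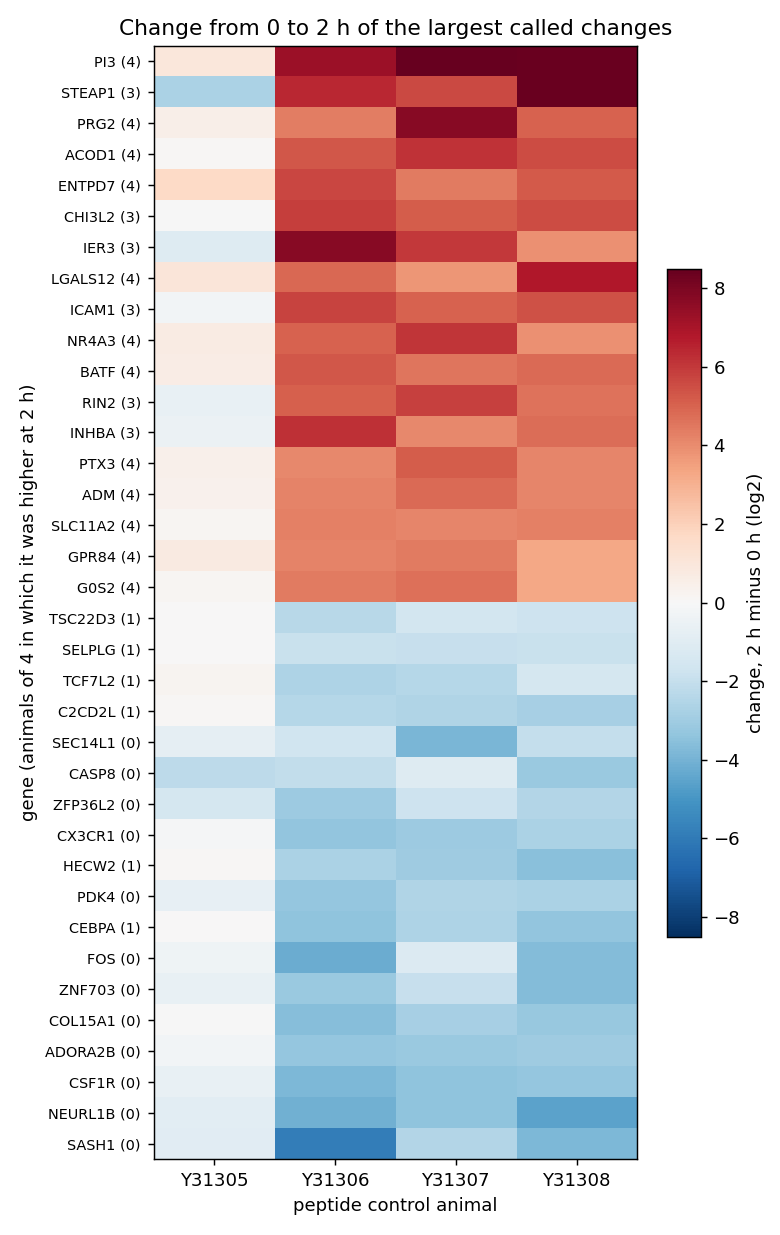
Change from 0 to 2 h (log2, colour) of the 18 largest rises and 18 largest falls named by the selection rule, 1 column per peptide control animal. The number beside a gene says in how many of the 4 animals it was higher at 2 h, and the pale first column is Y31305.

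Genes of endotoxin recognition went both ways. Of 19 tested, 2 rose and 1 fell, with a median change of 0.08, beside 3.3% called over all genes. With the animal as a block 3 rose and 3 fell, beside 7.63%. CD14, the co-receptor, read 11.98, 11.42, 11.87 and 11.49 at 0 h and 12.13, 12.98, 13.29 and 12.95 at 2 h. The groups did not overlap and it rose by 1.15 ± 0.30 (adjusted p = 0.0176). TLR4 changed by 1.01, 1.30, 0.91 and 1.41 in the 4 animals, Y31305 included, which was called with the animal as a block (adjusted p = 0.00626) and not without it (1.16 ± 0.37, adjusted p = 0.0681). The 3 other probe sets of TLR4 changed by 0.14, 0.68 and 0.72. IRAK2, a kinase downstream of Toll-like receptors, rose by 2.25 ± 0.44 (adjusted p = 0.00155, with 0.78 in its other probe set). TLR8, a receptor for single-stranded RNA, fell by 1.76 ± 0.36 (adjusted p = 0.00267). LY96, the partner of TLR4, was lower in 4 of 4 animals, at -1.48 ± 0.66 (adjusted p = 0.255), and TLR2 changed by 0.02.

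TREM1 itself was not called. It read 11.96, 7.73, 11.26 and 12.05 at 0 h and 12.59, 7.80, 11.21 and 11.72 at 2 h, a change of 0.08 ± 1.03 (adjusted p = 0.983). Y31306 read far lower than the other animals at both hours, so the spread between animals was wide in the test without a block. With the block the adjusted p was 0.972. The adaptor TYROBP stayed at 13.20 to 13.54 on all 8 arrays (-0.02 ± 0.16), and TREML1, the platelet relative from which LR12 derives, changed by 0.94 ± 0.55 (adjusted p = 0.447).

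In the list of TREM-1 and its adaptor pathway, 5 of 23 genes rose and 0 fell, with a median change of 0.17. Over all genes 2.2% rose and 1.1% fell, and 4.37% and 3.26% did with the block. These shares belong beside the counts of each list below as well. TREM2 rose by 2.79 ± 0.54 (adjusted p = 0.00132), from 5.74, 4.01, 3.80 and 5.29 to 5.89, 7.85, 7.85 and 8.42. TREML2 rose by 1.35, PGLYRP1, a bacterial cell wall binding protein reported as a TREM-1 ligand, by 1.496, and VAV1, an exchange factor below such receptors, by 1.97. With the animal as a block 2 members fell: CBL, a ubiquitin ligase that ends receptor signals (-0.96, adjusted p = 0.0102), and PIK3R1, the regulatory subunit of phosphoinositide kinase (-1.0035, adjusted p = 0.0347).

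NF-kB subunits and feedback genes rose in the largest number of any list. Of 25 tested, 14 rose and 0 fell, 18 rose with the block, and the change was above 0 in all 25, with a median of 1.23. The subunit genes NFKB1 (1.84), NFKB2 (1.76), RELA (0.88) and RELB (3.12) rose, and REL did so only with the block (0.72, adjusted p = 0.033, against 0.0852 without it). NFKBIA, the inhibitor that holds NF-kB in the cytoplasm, read 11.48, 11.30, 10.78 and 11.25 at 0 h and 11.72, 13.07, 13.19 and 12.99 at 2 h. It rose by 1.54 ± 0.29 (adjusted p = 0.00089) with no overlap. TNFAIP3, the A20 brake, read 10.15, 8.74, 9.35 and 8.89 at 0 h and 9.88, 13.05, 13.20 and 12.62 at 2 h (2.90 ± 0.52, adjusted p = 0.000881). It was lower at 2 h in Y31305 alone. The deubiquitinase CYLD (1.92), the A20 partner TNIP1 (1.03), the Toll pathway inhibitor IRAK3 (1.19) and GADD45B (1.26) rose too, whereas NFKBIZ changed by 0.48 ± 0.38 (adjusted p = 0.642). The median of the list was 0.20 in Y31305 and 1.77, 1.93 and 1.20 in the other animals, and 17 members rose without Y31305.

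The immediate early factors split. Of 25 genes, 5 rose and 1 fell, and 6 rose and 2 fell with the block, with a median of 0.08. NR4A3, a nuclear receptor switched on without a ligand, read 4.07, 3.98, 4.75 and 4.80 at 0 h and 4.73, 8.97, 10.81 and 8.66 at 2 h (3.89 ± 0.66, adjusted p = 0.000467). Its other probe set changed by 0.70. ATF3 rose by 2.99, MAFF by 1.59 and CEBPD by 1.26. FOSL1 rose by 3.99 from a mean of 1.81, which lay under the 20th percentile of the arrays (2.20), so the size of its rise is not defined. FOS, its close relative, fell by 2.34 ± 0.64 (adjusted p = 0.0276), from 10.77, 10.50, 9.54 and 10.35 to 10.40, 6.31, 8.41 and 6.68. JUN (0.33), EGR1 (0.88) and NR4A1 (-1.07) were not called.

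Among 23 inflammatory cytokine genes, 6 rose and 1 fell, and 8 rose and 3 fell with the block, with a median change of 0.74. Without Y31305 the counts were also 8 and 3. IL18, a cytokine released through the inflammasome, read 5.74, 4.51, 4.70 and 5.85 at 0 h and 5.26, 9.64, 10.46 and 10.33 at 2 h (3.72 ± 0.70, adjusted p = 0.00107). IL1B read 9.22, 8.83, 8.56 and 8.95 at 0 h and 8.82, 11.95, 12.37 and 11.83 at 2 h. It rose by 2.35 ± 0.58 (adjusted p = 0.0135). Both genes were lower at 2 h in Y31305 and higher in the other three. OSM, a cytokine of the IL-6 family, rose by 1.74 ± 0.41 (adjusted p = 0.00843) in 4 of 4 animals. TNFSF14, a ligand of the TNF superfamily, fell by 1.27.

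The classical early cytokines were less clear. TNF read 4.94, 5.93, 4.88 and 5.19 at 0 h and 5.33, 6.53, 7.27 and 6.05 at 2 h. It was higher in 4 of 4 animals and not called (1.06 ± 0.53, adjusted p = 0.342, and 0.162 with the block). IL6 read 3.56, 3.44, 2.64 and 2.39 at 0 h and 2.89, 6.70, 6.24 and 5.65 at 2 h. The change of 2.37 ± 0.85 was called without Y31305 (adjusted p = 0.0214) and not with it (0.121, and 0.0599 with the block). For IL1A the probe sets disagreed: the one with the higher mean over all arrays, which was tested, changed by 0.16 and the other by 4.82 (from 2.96 to 7.78), so no change is given for the gene. With the block, CSF3, the gene of the growth factor G-CSF, rose (adjusted p = 0.0458) from a mean of 2.16 that lay under the 20th percentile, as did HBEGF from a higher start (2.52, adjusted p = 0.00721), while IL15 (-1.82, adjusted p = 0.0333) and TNFSF13B, the B cell survival factor (-1.99, adjusted p = 0.0112), fell.

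Of 20 chemokine genes, 2 rose, 0 fell and 7 rose with the block, with a median of 1.18. Without Y31305, 6 rose. CCL2, which draws monocytes, read 4.46, 4.07, 3.65 and 4.08 at 0 h and 4.21, 8.43, 9.41 and 7.63 at 2 h (3.36 ± 0.82, adjusted p = 0.0116). CCL4 rose by 2.66 ± 0.74 (adjusted p = 0.0315). CCL20 read 2.88, 1.11, 1.59 and 1.73 at 0 h and 1.5032, 8.12, 6.82 and 4.92 at 2 h. Its start lay under the 20th percentile, so its size is not defined, and it was called with the block (adjusted p = 0.0165) and not without (0.0529). The others called with the block were CCL7 (2.62), CCL8 (3.02), CXCL10 (2.10) and CXCL6, which also started under that percentile. CXCL8, the main neutrophil chemokine, was higher in 2 of 4 animals, at 0.61 ± 0.45 (adjusted p = 0.599).

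**Figure D3:**
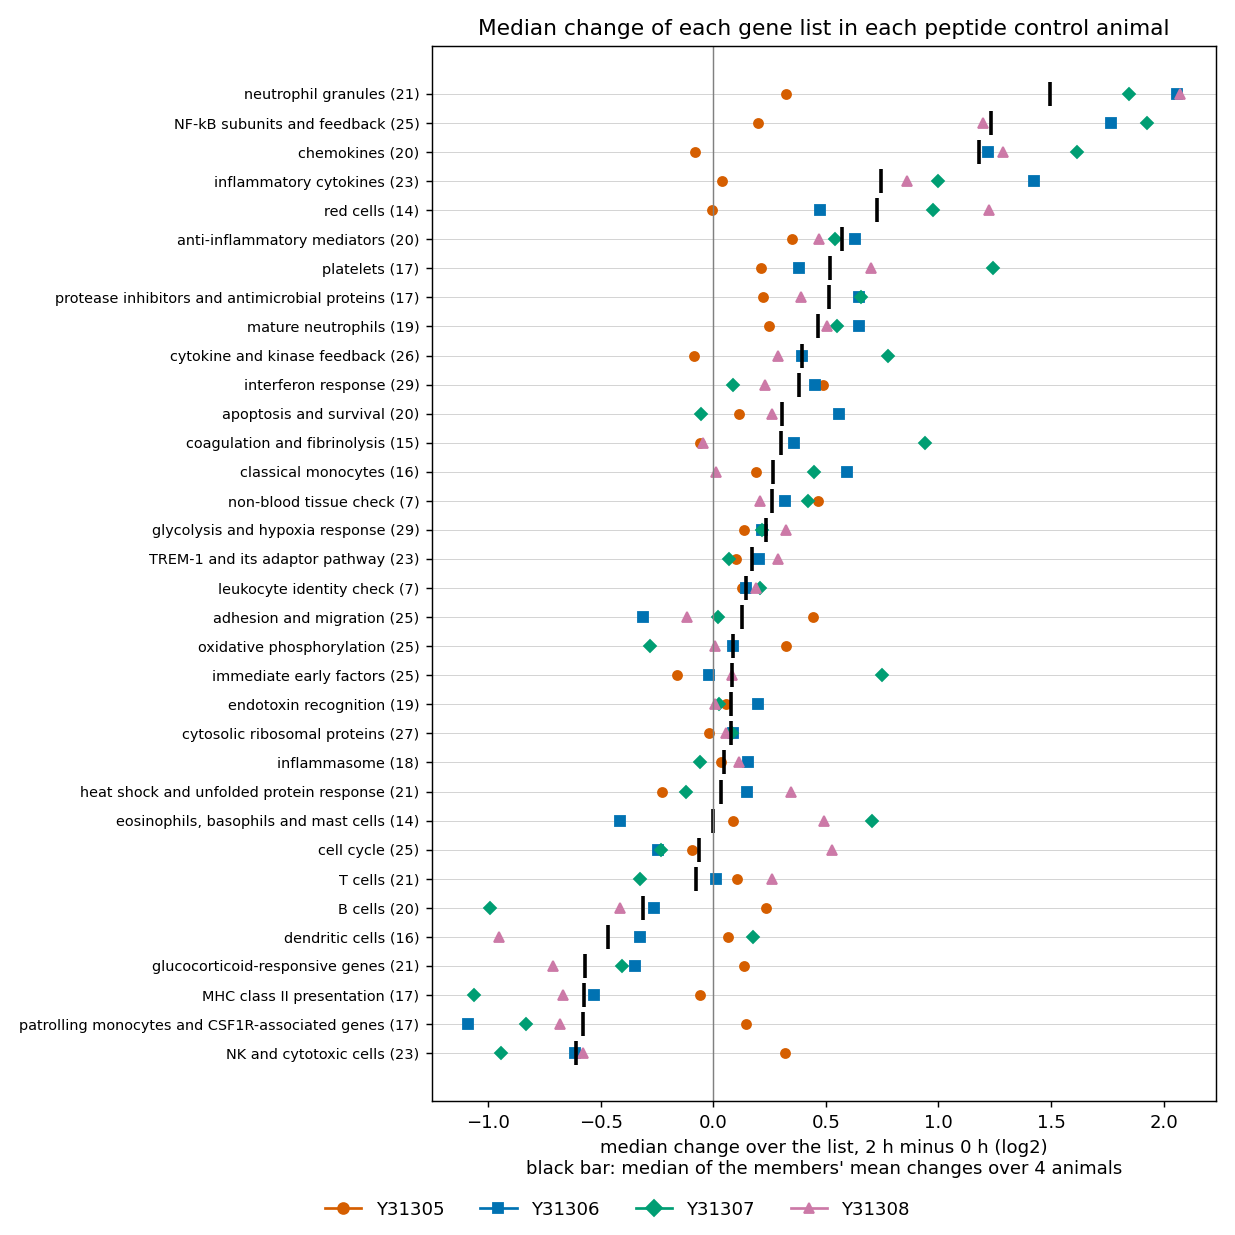
Median change from 0 to 2 h (log2) of each of 34 gene lists in each peptide control animal, with the number of genes tested in brackets and a black bar at the median over the members' mean changes. Neutrophil granules, NF-kB and chemokines lie farthest right and the patrolling monocyte, MHC class II and natural killer lists farthest left, with Y31305 between -0.08 and 0.32 in these 6.

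Cytokine and kinase feedback had 5 of 26 up and 0 down, with a median of 0.39, and with the block 6 up and 3 down. CISH (3.20 ± 0.65, adjusted p = 0.0022) and SOCS1 (1.91 ± 0.44, adjusted p = 0.00711), which stop cytokine receptors, rose in 4 of 4 animals, as did TRIB1 (1.69). Other probe sets changed by 1.83 and 0.79 in CISH, 0.65 and 1.60 in SOCS1, and 1.04 and -0.02 in TRIB1. SOCS3 changed by 0.83 (adjusted p = 0.192) in the probe set tested, which already read 12.78 at 0 h, and by 3.01, 2.22 and 2.03 in its 3 other probe sets, which were not tested. The falls called with the block were DUSP6 (-0.997), SPRY2 (-1.66) and RGS2 (-0.85), each a brake on kinase or G protein signals.

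Anti-inflammatory mediators had 5 of 20 up and 0 down, with a median of 0.57. IL1RN, the interleukin 1 receptor antagonist, read 9.75, 9.76, 9.45 and 10.71 at 0 h and 10.78, 13.39, 13.22 and 13.55 at 2 h. The groups did not overlap, and the change was 2.81 ± 0.55 (adjusted p = 0.00179). In Y31305 it was 1.03, against 3.62, 3.77 and 2.84 in the other animals. IL4R rose by 2.55 ± 0.48 and the decoy receptor IL1R2 by 1.66 ± 0.44. HMOX1, the heme-cleaving enzyme, was called with the block alone (2.06, adjusted p = 0.0371) and was lower at 2 h in Y31305. IL10 was too dim to be tested.

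Adhesion and migration genes went both ways, with 3 of 25 up and 2 down, 4 and 3 with the block, and a median of 0.13. CD44 (1.24), a hyaluronan receptor, and FPR1 (0.93), a receptor for bacterial peptides, rose beside ICAM1. SELPLG, the selectin ligand that lets leukocytes roll, stood at 9.84 to 9.99 at 0 h and at 9.87, 7.99, 7.94 and 8.12 at 2 h (-1.43 ± 0.32, adjusted p = 0.00537). ITGA4, an integrin of monocytes and lymphocytes, fell by 2.01 ± 0.57 (adjusted p = 0.0369) in 4 of 4 animals. With the block CXCR4, which holds leukocytes in the marrow, fell as well (-0.75, adjusted p = 0.0205). A second probe set of FPR1 and one of ITGA4 changed in the opposite direction to those used.

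Genes of neutrophil granules had the largest median change of the 34 lists, 1.496, but 1 of 21 was called without the block (PGLYRP1) and 11 with it. Without Y31305, 9 rose. CRISP3 changed by 1.08, 7.13, 4.93 and 6.03 in Y31305 to Y31308 (4.79, adjusted p = 0.0145 with the block and 0.0974 without), lactotransferrin (LTF) by 0.32, 4.69, 4.56 and 3.32 (0.0324 and 0.168), and the collagenase MMP8 by 0.60, 3.88, 4.50 and 2.16 (0.0112 and 0.104). LCN2, CEACAM6, TCN1, RETN, HP, CAMP and the protease CTSG were the others called with the block. OLFM4 (4.20, adjusted p = 0.223), MPO (1.17) and ELANE (0.66) were not called. In blood as a whole, more cells of a type and more RNA per cell cannot be told apart.

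Markers of mature neutrophils moved less, with 2 of 19 up, 0 down and a median of 0.47, and the animal medians lay between 0.25 in Y31305 and 0.65 in Y31306. The rises were FPR1 and G0S2. S100A12 rose with the block (1.94, adjusted p = 0.0139), while CXCR2 (0.17), S100A8 (0.40) and S100A9 (0.43) were not called. Of the list of protease inhibitors and antimicrobial proteins, PI3 rose without the block and SERPINB1, LCN2 and S100A12 were added with it.

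In the list of patrolling monocyte genes and genes associated with CSF1R, the called changes were mostly falls. Of 17 genes of that list, 0 rose and 4 fell, 1 rose and 6 fell with the block, and the median was -0.58. The rise was HMOX1, which that list also holds. Without Y31305, 1 rose and 7 fell. CSF1R, which binds the growth factor that keeps monocytes alive, read 10.56, 10.84, 10.10 and 10.40 at 0 h and 9.94, 7.04, 6.71 and 7.13 at 2 h. It fell by 2.77 ± 0.68 (adjusted p = 0.0131), with no overlap. CX3CR1, the fractalkine receptor, read 11.31, 11.28, 10.9995 and 10.86 at 0 h and 11.22, 7.92, 7.94 and 8.16 at 2 h (-2.30 ± 0.59, adjusted p = 0.0175). ADORA2B, an adenosine receptor, fell by 2.42 ± 0.62, from between 7.93 and 8.31 to 8.07, 4.67, 4.96 and 5.28, and TCF7L2, a factor of the Wnt pathway, by 1.58 ± 0.47. VMO1 (-3.07, adjusted p = 0.0497) and MS4A7 (-2.12, adjusted p = 0.0125) were called with the block. The list's median change was 0.15 in Y31305 and -1.09, -0.83 and -0.68 in the others. Classical monocyte markers had 1 of 16 up, which was CD14, and a median of 0.27, and with the block CLEC4E and FCGR1A made it 3.

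Lymphocyte markers had no called member. T cell markers had a median change of -0.08 (0 of 21 called, 8 above 0) and B cell markers -0.31 (0 of 20, with CD79B down with the block at -0.91, adjusted p = 0.0369). Markers of natural killer and cytotoxic cells had a median of -0.61 (0 of 23), with 0.32 in Y31305 and -0.62, -0.94 and -0.58 in the others, and median levels of 6.50 to 7.04 at 0 h and 5.70 to 6.41 at 2 h. MHC class II presentation, by which antigen is shown to T cells, had a median of -0.57, with 10 of 17 genes down in 4 of 4 animals and 0 called. CD74, its chaperone, was called with the block (-1.26, adjusted p = 0.0225). Over all genes, 12.6% were down in 4 of 4 animals.

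Dendritic cell genes had a median change of -0.47, with 7 of 16 above 0. Of the 16, 2 rose and 0 fell, and the rises were CD83 (1.90), a maturation marker, and BATF3 (2.52). With the block IL3RA rose (2.40, adjusted p = 0.0172), and IRF8 (-0.94, adjusted p = 0.0109) and the costimulatory gene CD86 (-1.60, adjusted p = 0.0225) fell. The plasmacytoid marker LILRA4 changed by -0.72 (adjusted p = 0.678).

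Platelet and red cell genes leaned upward in the mean of the 4 animals. Platelet markers had a median of 0.52 with 16 of 17 above 0 and 0 called, and red cell markers 0.73 with 14 of 14 above 0. Over all genes 47.3% were above 0. In Y31305 alone the platelet median was 0.21 (10 of 17 above 0) and the red cell median -0.01 (7 of 14). SLC4A1, the anion exchanger of red cells, rose from 2.73, 2.57, 4.09 and 3.18 to 4.95, 4.88, 6.11 and 6.12 (2.37 ± 0.58, adjusted p = 0.0118). It rose in Y31305 by as much as in the others, and AHSP, which stabilises alpha globin, was added with the block (1.21, adjusted p = 0.0319). The beta globin gene HBB changed by 0.22.

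Metabolic, stress and survival genes made smaller moves. In glycolysis and the hypoxia response, 4 of 29 rose and 0 fell, and 7 rose with the block. The 4 were ADM, the hexokinase HK3 (1.38), the glycolytic activator PFKFB3 (0.88 ± 0.21, adjusted p = 0.0087) and PGK1 (0.71). PFKFB3 and PGK1 rose with no overlap between hours. In the list of apoptosis and survival, FAS (1.42), BCL2L1 (1.37) and BIRC2 (1.07) rose and CASP8, the caspase of death receptors, fell by 2.16 ± 0.54 (adjusted p = 0.015). Other probe sets of CASP8 changed by -0.37 and -0.86. With the block that list had 6 of 20 up and 1 down. The interferon response had 2 of 29 up, which were SOCS1 and IFIH1, a sensor of viral RNA (1.52), and the block added CXCL10.

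In the inflammasome list IL1B and IL18 rose, 2 of 18 genes, and the block added NLRC4, CASP4 and GSDMD, which made 5. Lists with few or no calls were heat shock and the unfolded protein response (2 of 21 up, PPP1R15A at 1.56 and DNAJA1 at 1.53, and 3 with the block), glucocorticoid-responsive genes (1 up and 1 down of 21, 1 and 2 with the block, median -0.57), coagulation and fibrinolysis (0 of 15, and 1 up with the block), cytosolic ribosomal proteins (0 of 27, median 0.08), oxidative phosphorylation (0 up and 1 down of 25, the fall being COX7C at -0.79) and the cell cycle (0 of 25). TSC22D3, a glucocorticoid-induced gene of anti-inflammatory function, was the fall of its list, from 13.38, 13.69, 13.24 and 13.40 to 13.41, 11.34, 11.64 and 11.62 (-1.42 ± 0.28, adjusted p = 0.00174). Its 2 h value in Y31305 lay among the 0 h values. Over all 34 lists, 633 genes were tested, of which 62 rose and 12 fell, beside 2.2% and 1.1% of all genes.

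Falls outside the lists included regulators of transcription, RNA and ubiquitin. ZNF703, a transcriptional repressor, fell by 2.35 ± 0.58 (adjusted p = 0.0122), and CEBPA, which drives myeloid differentiation, by 2.34 ± 0.45 (adjusted p = 0.00132), from between 10.67 and 11.45 to 10.72, 7.59, 8.48 and 8.10. NEURL1B, a ubiquitin ligase, read 8.02, 8.27, 7.37 and 8.03 at 0 h and 7.14, 4.19, 3.98 and 3.51 at 2 h (-3.22 ± 0.94, adjusted p = 0.0437). SASH1, a signalling scaffold, fell by 3.29, HECW2, another ubiquitin ligase, by 2.31, and PDK4, which restrains pyruvate dehydrogenase, by 2.31. The other probe set of SASH1 changed by -0.02. COL15A1 (-2.42), a collagen, and C2CD2L (-1.93) fell as well. ZFP36L2, an RNA-binding protein that shortens transcripts, fell by 2.21 ± 0.42 and SEC14L1 by 2.08 ± 0.35, and each had another probe set that changed the opposite way. With the median of all its probe sets, ZFP36L2 changed by 0.14 and was not called.

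At later hours of the same arm the responses parted. Between 2 and 4 h, 785 genes were called (4.9%), 313 up (1.95%) and 472 down (2.95%). That comparison uses the same 2 h arrays, and all 4 arrays at 4 h were in the high-control set, so values are set side by side only. With the array set as a covariate 134 genes were called, and 38, 60 and 73 without Y31308, Y31307 and Y31306. PI3 stayed up, with means of 5.68, 11.95, 11.93 and 11.31 at 0, 2, 4 and 8 h, while those of ACOD1 were 4.88, 9.16, 6.72 and 5.36 (4 h against 2 h -2.44, adjusted p = 0.124). Over these hours NR4A3 fell by 2.997 (adjusted p = 0.00678), TNFAIP3 by 2.14 (adjusted p = 0.014), NFKBIA by 1.18 (adjusted p = 0.0133) and IL18 by 2.76 (adjusted p = 0.0172). SEC14L1 came back by 1.78 (adjusted p = 0.00243), CEBPA by 2.13 (adjusted p = 0.00473), TLR8 by 1.53 (adjusted p = 0.0115) and LY96 went up by 2.60 (adjusted p = 0.0174). TSC22D3 was higher by 0.93 (adjusted p = 0.0415).

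In Y31305 several of the strongest responses of the other animals were missing or much smaller at every hour. In that animal PI3 read 6.26, 7.20, 7.45 and 7.36 at 0, 2, 4 and 8 h, IL1B 9.22, 8.82, 8.99 and 9.02, and ICAM1 7.47, 7.26, 7.65 and 7.35. CSF1R read 10.56, 9.94, 10.32 and 10.99. In the other three animals PI3 was still at 11.86 to 13.22 at 8 h. Other called genes did differ between hours in Y31305: CASP8 read 11.31, 9.09, 10.27 and 9.497, ZFP36L2 12.76, 11.25, 12.17 and 10.85, and COL15A1 8.51, 8.49, 7.54 and 6.69. The poly-A control level of these arrays was 10.08, 6.63, 9.32 and 6.87. CASP8 and ZFP36L2 read higher on the arrays of the high set (0 and 4 h) than on those of the low set. The part of the array set in these values was not tested.

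**Figure D4:**
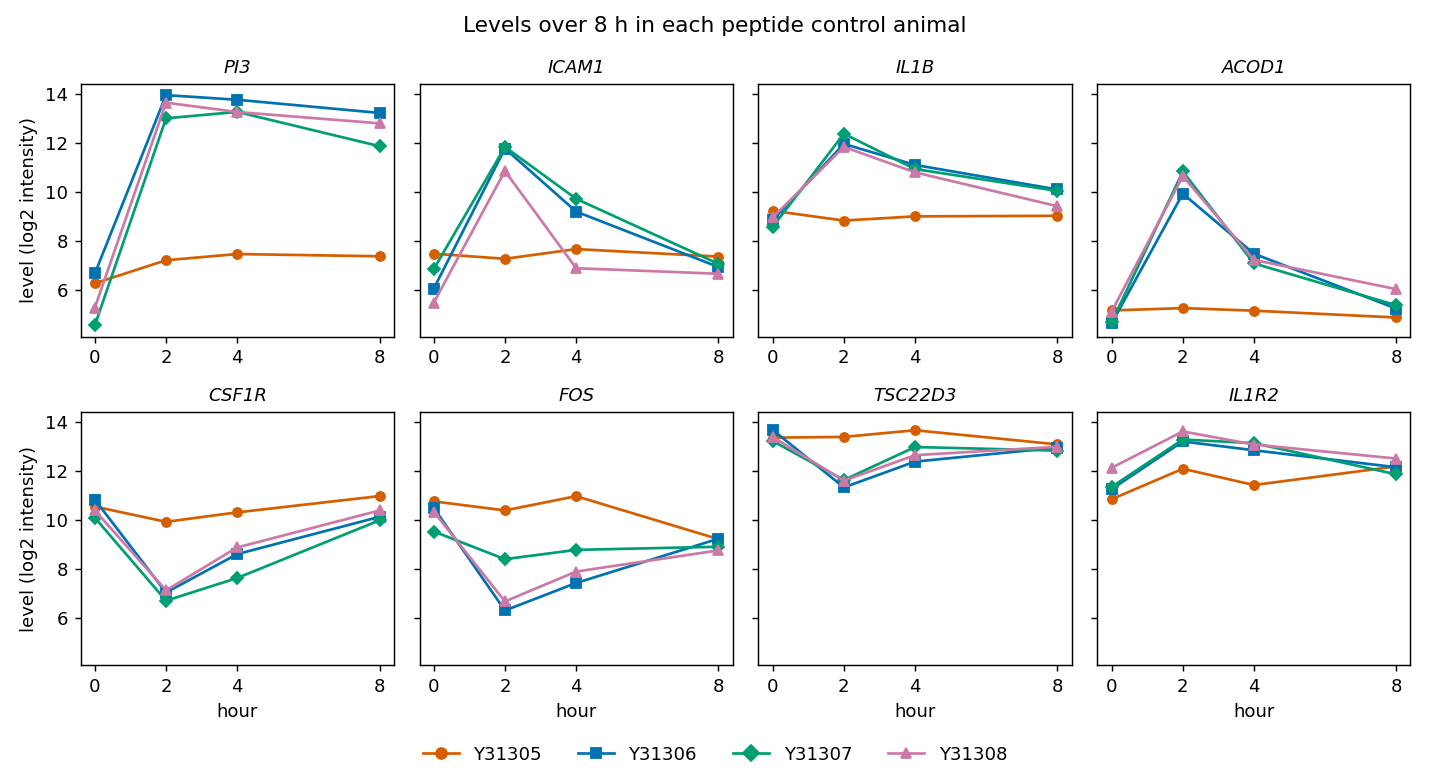
Level (log2 intensity) at 0, 2, 4 and 8 h of 8 genes in each peptide control animal. ICAM1, IL1B and ACOD1 peak at 2 h and decline, PI3 stays high, and CSF1R, FOS and TSC22D3 dip at 2 h. Up to 4 h the lines of Y31305 stay close to level in these 7 genes, apart from PI3, which climbs from 6.26 to 7.45.

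The change to 2 h was then set against the other arms, which share no arrays with it. Against vehicle, limma called 0 genes (0%), with 555 at an unadjusted p under 0.05 and a smallest adjusted p of 0.672, and 0 with the animal as a block. One vehicle animal, Y31303, changed as most peptide control animals did. Over the 352 rises its median change was 1.51, with 349 of them up, against 0.16, 0.25 and 0.29 in Y31301, Y31302 and Y31304 and 0.50 in Y31305. Over the 176 falls it was -1.33, against 0.12, 0.02 and -0.37. In PI3 the vehicle changes were 0.77, 1.13, 7.98 and 0.02 in Y31301 to Y31304, in ICAM1 -0.09, -0.40, 4.84 and 0.08, and in CSF1R -0.71, -0.82, -4.45 and -0.36. The vehicle label of Y31303 and the peptide control label of Y31305 were kept as given, and whether they hold was not tested.

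Without Y31303 the difference from vehicle was called in 58 genes (0.362%), 40 more positive and 18 more negative in the peptide control arm, and without Y31305 in 12. IL18 changed by 4.65 ± 0.89 more than in the 3 remaining vehicle animals (adjusted p = 0.0117), NR4A3 by 4.73, BATF by 3.98 and ICAM1 by 4.11. CEBPA (-2.71 ± 0.50, adjusted p = 0.0117) and HECW2 (-3.32) were among the more negative. Leaving out Y31303 was chosen after its values were seen, and the count of 58 describes that choice.

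Against LR12, limma called 0 genes without the block (0%), with 1900 at an unadjusted p under 0.05 and a smallest adjusted p of 0.0528, and 188 with it (1.17%), 174 more positive and 14 more negative. The median change of all genes was -0.18 in the LR12 arm and -0.04 here. With the block and each array centred on its median the count was 4, and with the block and the array set 51. ABHD10, a mitochondrial hydrolase, changed by -0.62, -0.49, -0.67 and -0.96 in the peptide control animals and by -3.82 to -2.39 in the 6 LR12 animals (difference 2.34 ± 0.37, adjusted p = 0.00125 with the block). UCP2, a mitochondrial carrier, changed by 1.18, -0.36, -0.37 and 0.39 against -2.82 to -0.74 (2.33, adjusted p = 0.00829). HAMP, the gene of the iron hormone hepcidin, changed by -0.50, 1.19, 0.73 and 1.12 against 1.72 to 4.57 (-2.65, adjusted p = 0.00546), and PLAUR, the urokinase receptor, by -0.17, 2.47, 2.26 and 0.17 against 2.12 to 4.53 (-2.38, adjusted p = 0.0303). Neither Y31305 nor the other three overlapped with the LR12 animals in ABHD10 and HAMP. Without the LR12 animal Y31309, 35 genes were called without the block.

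Single inflammatory rises were set beside those of the LR12 arm too. PI3 changed by 5.47 to 9.03 in LR12 animals, ICAM1 by 4.59 to 6.27 and IL1B by 2.91 to 4.41, ranges that meet those of Y31306 to Y31308 (7.29 to 8.46, 4.99 to 5.73 and 2.88 to 3.81). The changes of Y31305 (0.94, -0.21 and -0.40) lay below them. Over all 4 animals the differences from LR12 were -1.44 ± 2.06, -1.52 ± 0.90 and -1.36 ± 0.75, and none was called (adjusted p = 0.828, 0.513 and 0.474). PRG2 was higher by 4.38, 7.71 and 4.99 in those 3 animals and by -0.12 to 3.51 in the LR12 animals, and its difference between the arms was not called (3.16 ± 1.43, adjusted p = 0.377). The T cell list had a median change of -0.08 in the peptide control arm and -1.43 in the LR12 arm, and this difference of lists was not tested. Over the 352 rises the medians of the 6 LR12 animals ran from 1.44 to 2.00.

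**Figure D5:**
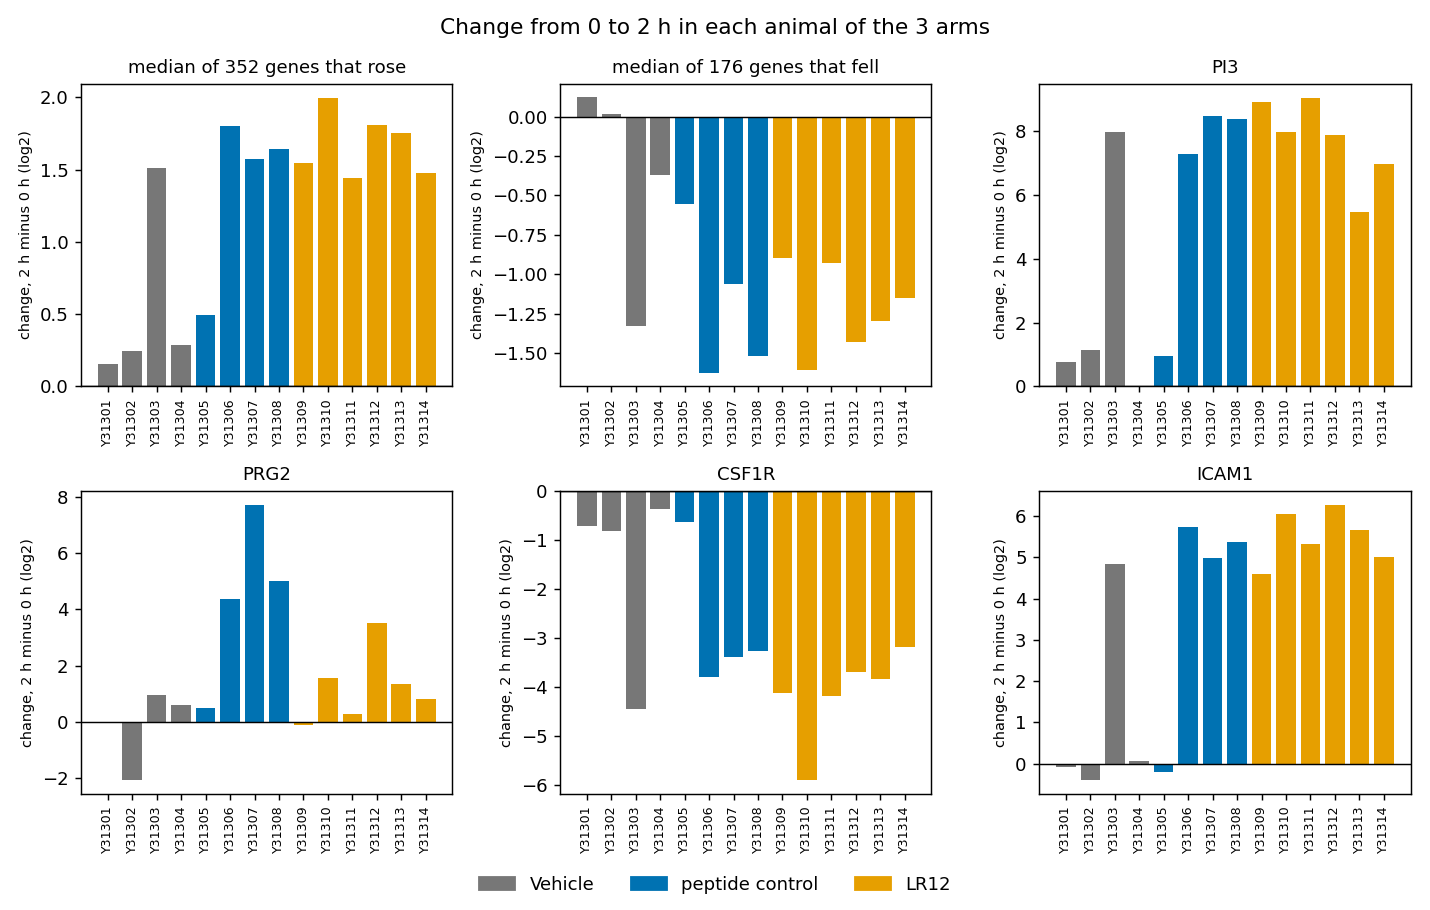
Change from 0 to 2 h (log2) in each of the 14 animals, coloured by arm: the median over the 352 genes that rose and over the 176 that fell in the peptide control arm, and 4 single genes. Y31303 among the vehicle animals has bars like those of Y31306 to Y31308 except in PRG2, and Y31305 has short bars like the other vehicle animals.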

How the data were processed

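Whole blood RNA of 14 macaques at 4 hours was read on 56 human genome arrays, from 50 ng of RNA per sample per the labels' protocols. The deposited values are MAS5 intensity on a linear scale, per the submitters' processing notes, and each array's trimmed mean is 149.96 to 149.97, so the arrays had been scaled to 1 level. Log2 of the intensity was taken here. Probe sets above the array median on at least 4 of 56 arrays were kept (38826 of 54675), and each gene was read from its brightest probe set with 1 symbol, which left 16020 genes. The symbols come from the platform's annotation.

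One linear model with a term for each arm and hour was fitted to all 56 arrays with limma 3.58.1 (R 4.3.3, trended and robust eBayes), and p-values were adjusted over all genes at a threshold of 0.05. Its steps were tested on simulated data with independent noise on each array. Those data could not test how the fits handle animal effects, array sets or an animal that stands apart. Numbers in the titles name the animals, so they pair arrays. Arrays of the same animal correlated at 0.18 on average after group means were removed, against -0.03 between animals, and 45 of 56 arrays were best matched by their own animal. Between the 0 and 2 h arrays this correlation was lowest in Y31305 (0.055), against 0.078 to 0.346 in the other animals of the series. The block was the animal as a random effect (statmod 1.5.0, consensus correlation 0.22).

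Named genes were the 12 largest rises and falls with 1 direction in 4 of 4 animals, the 6 largest with it in 3 of 4 (ranked with 16 added to the intensity), key genes of endotoxin and TREM-1 signalling, and called or needed members of 34 gene lists. In comparisons with other hours and arms they were the 5 largest differences in each direction, and a few members named beyond these were chosen after their values were seen. The comparison, the lists and the rule were chosen with earlier results of these data known. Alternatives varied scaling, offset, filter, probe set, arrays fitted, block, array set, variance prior and animals. Leaving out vehicle or LR12 animals, and using the control probe level as a covariate or the array set with centring, were added after seeing the data. The number of arrays limits the precision.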

Additional observations from a re-analysis of the deposited data

Results flagged for a closer look

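In 141 sets of 4 values, the highest or lowest value was tested for its gap to the nearest other one, as a share of the whole range, against Dixon's critical value for 4 samples. The gap was wider in 24 sets (17%). In 22 of them the value apart was that of Y31305, always on the side of a smaller response. Chance gives about 1 in 20 for sets that were not chosen by their values. Many of the sets here are genes named for these same changes. Some, such as CHI3L2, ICAM1 and C2CD2L, were named because 1 animal went the other way, which favours a value apart. The share of 17% can therefore not be compared with that rate, and it only describes the sets.

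For rises, the gap was 0.845 in PI3, 0.858 in ACOD1, 0.839 in BATF, 0.851 in ADM, 0.96 in SLC11A2, 0.875 in CHI3L2 and 0.876 in ICAM1. It was 0.891 in CD14, 0.872 in TNFAIP3, 0.836 in OLR1, 0.857 in ATF3, 0.95 in CISH and 0.878 in TRIB1. It was 0.865 in BATF3, 0.903 in DNAJA1, 0.887 in ANKRD33B and 0.921 in IL6, which was not called. For falls it was 0.833 in CSF1R, 0.918 in ADORA2B, 0.856 in C2CD2L and 0.947 in SELPLG. The median change of the neutrophil granule list had a gap of 0.872. These sets share the same 8 arrays and are not independent.

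In SLC41A1 the value apart was the highest, that of Y31308 (0.844). Among the levels of poly-A control probe sets at 0 h the lowest, that of Y31307, stood apart (0.831).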

How the results depend on the processing

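Main counts were 528 genes called, 352 up, 176 down and 74 list members. With only the 8 arrays they were 92, 68, 24 and 15. With the replicate block they were 1223, 700, 523 and 133, with block and array set 1317, 694, 623 and 152, and with block and centring 949, 624, 325 and 120. The level of the control probes as a covariate gave 1074, 579, 495 and 129, and with the block 1713, 807, 906 and 174. Only low-control arrays gave 4, 4, 0 and 0, from 1 array at 0 h and 3 at 2 h. Centring gave 99 falls. Leaving out 1 animal gave 18 to 880 genes, 17 to 533 rises, 1 to 347 falls and 3 to 116 list members, lowest without Y31306 and highest without Y31305. The median change of all genes stayed between -0.10 and 0.02.

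The difference from vehicle ran from 0 to 58 calls with 1 animal left out and was 1 on low-control arrays. That from LR12 was 0, and 188 with the block, 623 with the animal as a fixed term, 51 with block and array set, 4 with block and centring, 16 with block and control level, 3 with only the groups compared, 2 with the stricter filter, 1 with quantile normalization, 1 with the array set, 4 on low-control arrays, and 0 to 35 with 1 animal left out. For 4 h against 2 h (785) the counts were 440 with only the groups compared, 1987 with the block, 2449 with the fixed term, 134 with the array set, 387 with it and the block, 1397 with block and centring, 218 with the control level, 305 with set and centring, and 38 to 980 with 1 animal left out. It could not be fitted on low-control arrays. ZFP36L2 turned to 0.14 with the median of its probe sets, and ARRDC3 to 0.016 on low-control arrays. The cause was not tested.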
